A study of Mus musculus with 25 samples.

Results

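The 34 genes described here encode heat shock proteins and proteins of the endoplasmic reticulum (ER) stress response, and their transcripts were followed across 25 mouse hearts. They were listed by symbol, with earlier results of these data known, and all 34 symbols were found among the 56941 genes of the deposited counts table. All 34 also passed the filter on low counts, which left 17682 genes for testing. They fall into 5 classes: 11 cytosolic heat shock genes, 5 small heat shock proteins, 2 subunits of the mitochondrial chaperonin, 10 ER chaperones and folding enzymes, and 6 genes of ER stress signalling.

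RNA sequencing was done on hearts of wild-type mice (WT) and of mice labelled MCT1KO, a knockout of the lactate and pyruvate transporter MCT1, the product of Slc16a1. Hearts of each genotype came from mice without a pump, with saline, or with Ang/PE, a pair of neurohormonal agonists used to enlarge the heart muscle. There were 4 WT and 3 MCT1KO hearts without a pump, 6 WT and 4 MCT1KO hearts with saline, and 3 WT and 5 MCT1KO hearts with Ang/PE. The strain, age and sex of the mice, the cells in which MCT1 was deleted, the doses and the length of treatment are not given in the sources used here.

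Heat shock proteins keep other proteins folded. When unfolded protein builds up in the cytosol, the transcription factor HSF1 binds heat shock elements in the promoters of these genes and raises their transcription within minutes to hours. Unfolded protein in the ER is sensed separately by ATF6, IRE1 and PERK, which raise ER chaperones through ER stress elements and, through ATF4, genes such as Ddit3 and Trib3. In heart muscle, small heat shock proteins and the co-chaperone BAG3 are abundant and hold the contractile filaments in shape under load.

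The libraries held 12216704 to 24880683 counts, with the Ang/PE hearts at the shallow end (12216704 to 16610416), and genes encoded by mitochondrial DNA took 8.87% to 18.35% of them. Values below are CPM, read counts scaled to a common library size, and a gene was called when its adjusted p in the edgeR quasi-likelihood test was below 0.05. Slc16a1 ranged from 132 to 249 CPM over all hearts, and in MCT1KO it differed from WT by −0.02, −0.33 and −0.18 on the log2 scale without a pump, with saline and with Ang/PE (SE 0.15, 0.13 and 0.15; adjusted p 0.976, 0.219 and 0.807). Its counts do not show the knockout, so each direction given for MCT1KO rests on the label. Cardiomyocyte markers summed to 33700 to 70200 CPM, lowest in MCT1KO saline 4. That heart also had the highest sum of adipocyte markers (1450 CPM, against at most 79.6 in the other hearts). Its sum of atrial markers was highest too (7390 CPM, against at most 5150). The 5150 CPM was in MCT1KO Ang/PE 2, with the atrial marker Nppa at 5140 CPM. In bulk heart RNA, fewer cells of a type and less RNA per cell cannot be told apart. Xist RNA, made from the inactive X chromosome, was above 100 CPM in all 3 WT Ang/PE hearts and in 1 of 6 WT saline hearts, and in 4 of 5 MCT1KO Ang/PE hearts and 3 of 4 MCT1KO saline hearts.

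Promoter sequences are shown for some members that hold a motif match, to set heat shock genes beside ER chaperones. Of the members called in any comparison below, only Hsph1 and Hspe1 are shown. They come from RefSeq on GRCm38.p6, which listed a start for 27 of the 34 members; Atf6, Hsf1, Manf, Hsp90ab1, Cryab, Hsp90aa1 and Hspa8 had none. The 250 bases before each start were searched on both strands. The core of the heat shock element, written here as GAANNTTC or TTCNNGAA, is found in the windows of 14.5% of all 27025 listed genes (12.8% of 32851 windows) and of 9 of the 27 members: Dnaja1, Dnajb4, Hspa1a, Hspa1b, Hspb1, Hspb6, Hspd1, Hspe1 and Hsph1. The ER stress element, a CCAAT and a CCACG separated by 9 bases, is found for 0.13% of all genes (0.113% of windows) and for 6 members: Calr, Canx, Creld2, Hsp90b1, Hspa5 and Pdia6. No member had both, and TGATGNAAT, a core bound by ATF4, was found for 0.91% of genes (0.816% of windows) and for 0 members. Hspb7, Bag3 and Dnajb1, whose values are given below, had a window without the heat shock core. A match describes letters only, and the deposited table holds no measure of binding.

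The 150 bases before the start follow for 4 heat shock genes with the core in capitals, 5′ to 3′. They are Hspa1a at chr17:34972157-34972306 (minus strand), Hspa1b at chr17:34959239-34959388 (minus strand), Hspb1 at chr5:135887769-135887918 (plus strand) and Hsph1 at chr5:149636316-149636465 (minus strand). Hsph1 has 2 listed starts, and the window of 1 of them is shown.
Hspa1a: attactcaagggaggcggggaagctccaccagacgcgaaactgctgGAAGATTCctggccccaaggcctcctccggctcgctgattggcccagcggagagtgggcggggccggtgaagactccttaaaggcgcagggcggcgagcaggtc
Hspa1b: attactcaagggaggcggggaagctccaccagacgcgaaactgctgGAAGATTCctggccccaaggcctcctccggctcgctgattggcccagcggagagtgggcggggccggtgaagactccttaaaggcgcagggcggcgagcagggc
Hspb1: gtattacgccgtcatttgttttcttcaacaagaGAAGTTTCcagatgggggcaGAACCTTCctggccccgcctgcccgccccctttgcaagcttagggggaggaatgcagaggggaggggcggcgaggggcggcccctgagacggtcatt
Hsph1: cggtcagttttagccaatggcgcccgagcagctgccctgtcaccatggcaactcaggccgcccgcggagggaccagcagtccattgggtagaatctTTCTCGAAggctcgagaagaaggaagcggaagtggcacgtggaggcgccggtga
Hspa1a and Hspa1b were identical at 149 of these 150 bases, with the core from −104 to −97 in each. Hspb1 had separate cores, from −117 and from −97. The copies of Hspa1 are near-identical in their transcripts too, and how reads that match both were counted is not given in the sources used here, so the split between them is uncertain.

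Hspe1, at chr1:55087998-55088147 (plus strand), is shown because its promoter lies between the mitochondrial chaperonin genes and holds 3 overlapping cores in a row, from −89 to −72. Hspa5, at chr2:34771940-34772089 (plus strand), and Hsp90b1, at chr10:86705445-86705594 (minus strand), are shown for the ER stress element, with the outer blocks of each in capitals.
Hspe1: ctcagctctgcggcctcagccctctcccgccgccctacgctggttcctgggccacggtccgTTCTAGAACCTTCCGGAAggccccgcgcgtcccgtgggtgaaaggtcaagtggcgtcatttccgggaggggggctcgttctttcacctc
Hspa5: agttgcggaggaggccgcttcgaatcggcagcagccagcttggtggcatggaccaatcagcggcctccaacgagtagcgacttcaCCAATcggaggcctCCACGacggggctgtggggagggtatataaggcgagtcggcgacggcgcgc
Hsp90b1: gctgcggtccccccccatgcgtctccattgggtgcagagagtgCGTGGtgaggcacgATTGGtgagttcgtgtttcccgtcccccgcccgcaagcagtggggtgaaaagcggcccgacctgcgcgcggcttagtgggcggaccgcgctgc
The element runs from −65 to −47 in Hspa5 and from −107 to −89 in Hsp90b1, where it is on the opposite strand. Hsp90b1 has another, further upstream from −212, outside the stretch shown.

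Compared per length of exon, the most abundant members were small heat shock proteins of muscle. As the median of the 25 hearts, Cryab, which encodes αB-crystallin, had 551 CPM per kb and Hspb7 509. They were followed by the cytosolic chaperones Hsp90ab1 (323 CPM per kb) and Hspa8 (240 CPM per kb), the constitutive forms of HSP90 and HSP70. Among ER genes the median level per length was highest for Hspa5, which encodes the main ER chaperone BiP, at 94.1 CPM per kb. Lowest were Sdf2l1 (3.73), Trib3 (1.48) and the inducible Hspa1b (0.711) and Hspa1a (0.707). The mean of Hspa1a was 10.6 CPM per kb, far above its median, and its highest hearts are given below. Together the 34 genes took 0.64% to 1.243% of the reads of a heart, with the highest share in WT Ang/PE 3 and the lowest in MCT1KO saline 4.

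Single hearts stood out within their groups. WT Ang/PE 3 had the highest level of all 25 hearts for 17 of the 34 members, against 6.89% of all tested genes, and MCT1KO Ang/PE 1 for 8, against 4.99% of all tested genes. MCT1KO saline 4 had the lowest level for 13 members, and for 16.8% of all tested genes. Set against the 17 hearts without Ang/PE, MCT1KO Ang/PE 1 was above every one of them for 25 members, WT Ang/PE 3 for 24 and MCT1KO Ang/PE 2 for 14. The same was true of 10.2%, 11.2% and 11.3% of all tested genes in those hearts. In MCT1KO Ang/PE hearts 3, 4 and 5 it held for 4, 6 and 5 members, against 6.39%, 6.63% and 9.26% of all genes, and in WT Ang/PE hearts 1 and 2 for 1 each, against 2.92% and 3.04%. These hearts were singled out after their values were seen.

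**Figure D1:**
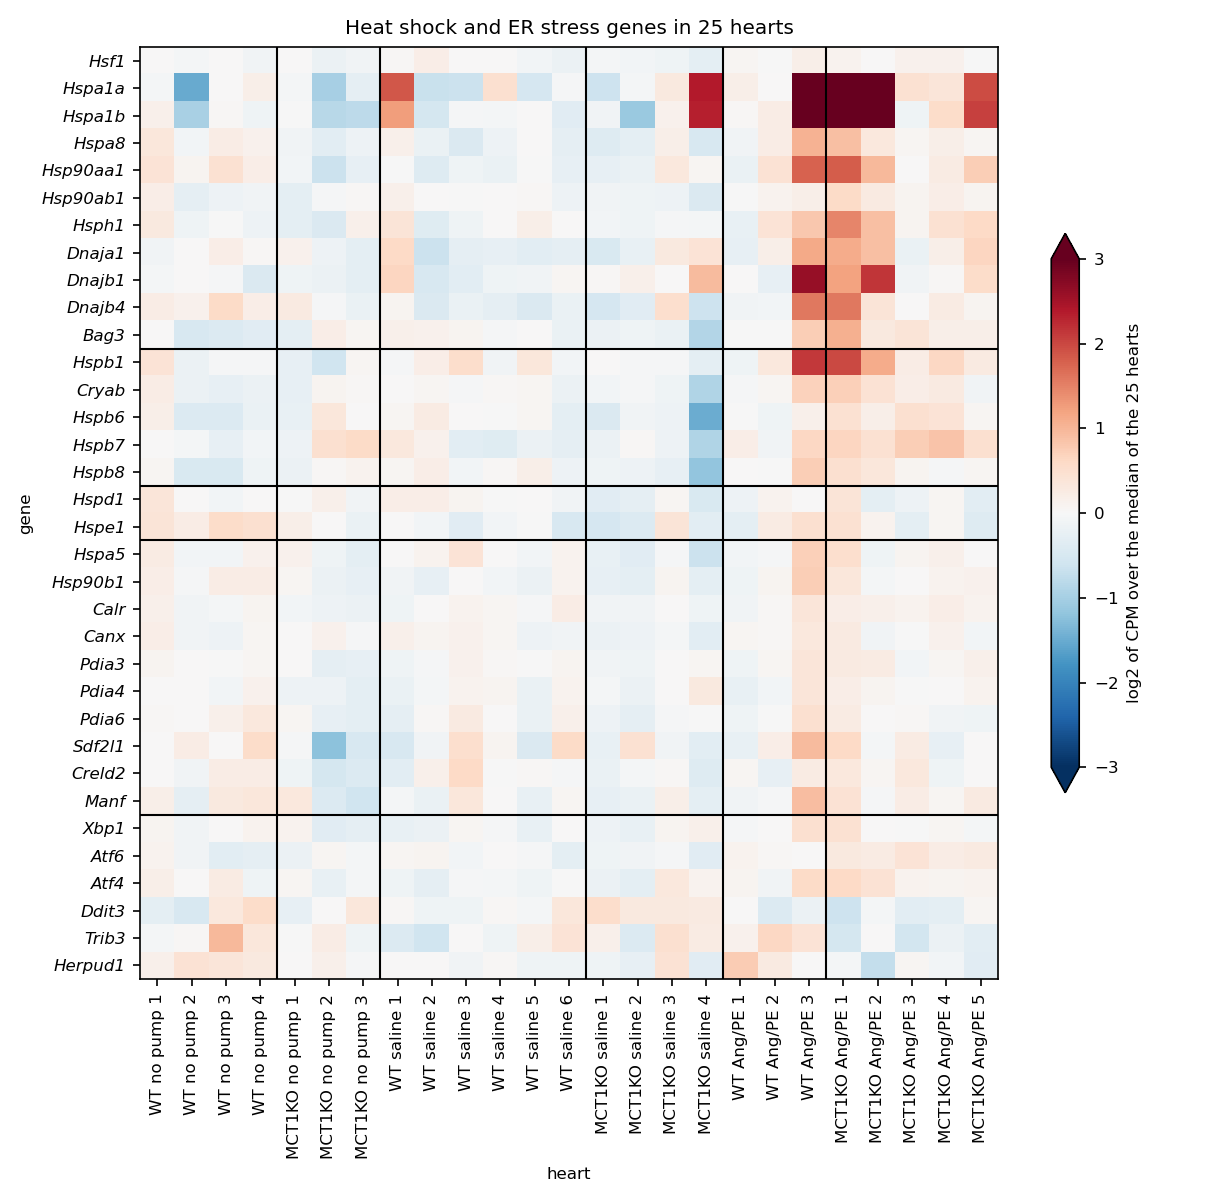
Heat map of the 34 genes (vertical axis, by class, separated by lines) in the 25 hearts (horizontal axis, by group), coloured by the log2 of CPM over the median of all hearts, with the scale limited to −3 to 3. The 3 dark columns for Hspa1a and Hspa1b are WT Ang/PE 3, MCT1KO Ang/PE 1 and MCT1KO Ang/PE 2, and the blue column of small heat shock proteins is MCT1KO saline 4.

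Hspa1a and Hspa1b encode the inducible HSP70, the classic product of heat shock. Hspa1b is given under the rule for naming genes, and the other strongly uneven members were picked after their values were seen. Without a pump Hspa1b was at 2.21, 1.02, 2.05 and 1.82 CPM in WT hearts 1 to 4 and at 1.96, 1.11 and 1.16 CPM in MCT1KO hearts 1 to 3. With saline it ran from 1.38 to 4.71 CPM in WT, with a median of 1.93, and was 1.85, 0.916, 2.19 and 10.1 CPM in MCT1KO hearts 1 to 4. With Ang/PE it was 2.03, 2.31 and 304 CPM in WT hearts 1 to 3 and 280, 58.2, 1.83, 2.92 and 8.22 CPM in MCT1KO hearts 1 to 5. So 1 of 3 WT and 2 of 5 MCT1KO hearts with Ang/PE stood far above the rest, and the other Ang/PE hearts overlapped the saline hearts.

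Hspa1a was high in the same hearts, with 349 CPM in WT Ang/PE 3, 306 in MCT1KO Ang/PE 1 and 68.8 in MCT1KO Ang/PE 2. The other 22 hearts lay between 0.731 and 11 CPM, and the lowest value rests on 15 reads. Over the median of all 25 hearts, Hspa1a was 166-fold, 146-fold and 32.8-fold higher in those 3 hearts. Neither gene was called in the edgeR fit to all 25 hearts. The log2 fold change of Hspa1b for Ang/PE against saline was 5.51 in WT (SE 1.39, adjusted p 0.0721) and 4.20 in MCT1KO (SE 1.48, adjusted p 0.110), and that of Hspa1a 5.40 (adjusted p 0.0741) and 4.18 (adjusted p 0.118). Without WT Ang/PE 3 the WT values turned to −0.04 for Hspa1b and −0.30 for Hspa1a. In MCT1KO they were 2.22 and 2.26 without MCT1KO Ang/PE 1, and 5.38 and 5.29 without MCT1KO saline 4. DESeq2 called both genes higher in both genotypes, and edgeR called Hspa1b in WT when WT Ang/PE 1 was left out (adjusted p 0.0451).

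Other inducible heat shock genes were highest in those hearts as well. Dnajb1, the HSP40 that loads clients onto HSP70, was at 106 CPM in WT Ang/PE 3, 76.4 in MCT1KO Ang/PE 2 and 40.1 in MCT1KO Ang/PE 1, and between 12.4 and 33.7 CPM elsewhere. Hspb1, which encodes HSP27, was at 454 CPM in WT Ang/PE 3, 410 in MCT1KO Ang/PE 1 and 224 in MCT1KO Ang/PE 2, against 68.8 to 159 CPM in the other hearts. Hsp90aa1, the inducible HSP90, was at 287, 295 and 165 CPM in WT Ang/PE 3, MCT1KO Ang/PE 1 and MCT1KO Ang/PE 2, against 54.1 to 140. All 3 hearts were above every other heart for Hspa1a, Hspa1b, Hsp90aa1, Hsph1, Dnaja1, Dnajb1, Hspb1, Cryab, Hspb8, Pdia3 and Atf4, 11 of the 34 members, and for 0.86% of all tested genes. The hearts were picked by these values, so this is a description. For Dnajb4 and Hspa8 this held for WT Ang/PE 3 and MCT1KO Ang/PE 1, with Dnajb4 at 237 and 240 CPM against at most 119 elsewhere. None of Dnajb1, Hspb1, Hsp90aa1, the HSP40 genes Dnaja1 and Dnajb4, and Hspa8 was called in any of the 11 comparisons in the edgeR fit to all 25 hearts.

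**Figure D2:**
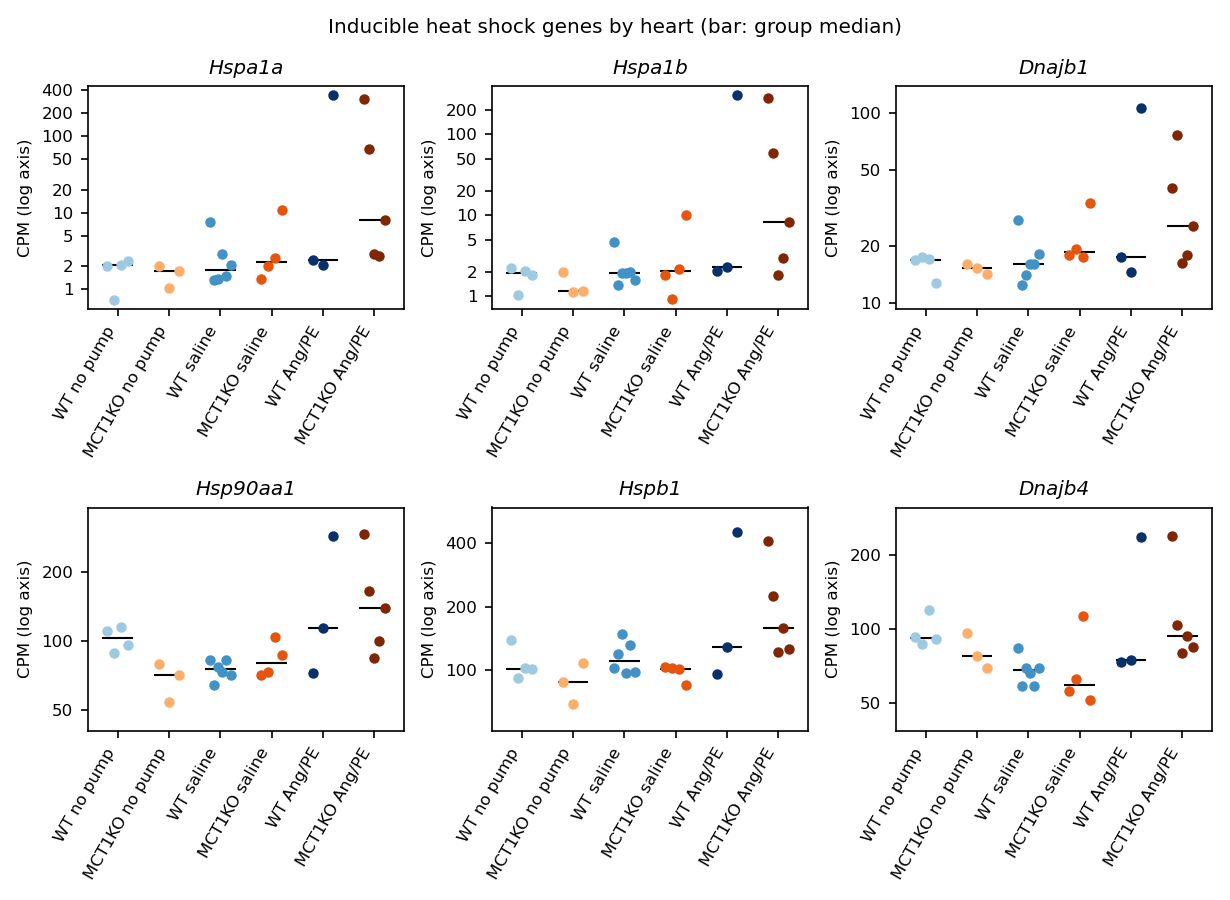
CPM of 6 heat shock genes (vertical axes, log scale) in each heart of the 6 groups (horizontal axes), with points for hearts and a bar for the group median. The Ang/PE groups split, with Hspa1a at 349 CPM in 1 of 3 WT hearts and at 306 and 68.8 CPM in 2 of 5 MCT1KO hearts, and at most 11 CPM in all other hearts.

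Outside the 34 genes, Atf3 also set these 3 hearts apart. Atf3, an immediate early gene that is also a target of ATF4, was at 342, 268 and 83.7 CPM in WT Ang/PE 3, MCT1KO Ang/PE 1 and MCT1KO Ang/PE 2, and at most 25.8 CPM in the other hearts. The summed CPM of the other 7 immediate early genes on the list was 282, 239 and 1190 in these hearts and 98.2 to 490 in the others, with the 490 in MCT1KO saline 4, so that only MCT1KO Ang/PE 2 was outside their range. Xist RNA was above 100 CPM in all 3 and in 10 of the other 22. Their depths were 14749488, 12216704 and 13923199 counts, and MCT1KO Ang/PE 1 was the shallowest of all 25 libraries. The part of these measures in the levels of heat shock genes was not tested.

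In MCT1KO hearts, Ang/PE against saline was the comparison with the most called members. The small heat shock proteins Hspb7 and Hspb6, the co-chaperones Bag3 and Hsph1, the constitutive Hsp90ab1 and the ER stress sensor Atf6 were higher with Ang/PE, by 1.35-fold to 1.87-fold. In all, 6 of 34 members were called and all 6 were higher, while 4.46% of the 17682 tested genes were called and 1.75% were called higher. At an unadjusted p below 0.05 there were 20 members, against 20.4% of all genes, and 31 members had a positive log2 fold change. The median log2 fold change was 0.38 over the members and −0.01 over all tested genes. For 10 members every Ang/PE heart was above every saline heart, which was true of 3.06% of all genes: the 6 called, Hsf1, Hspb1, Hspb8 and Calr.

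Hspb7, a small heat shock protein of heart muscle, was the called member with the smallest p. It was at 1240, 1440, 1260 and 754 CPM in MCT1KO saline hearts 1 to 4, and at 2200, 1920, 2340, 2560 and 1960 CPM in MCT1KO Ang/PE hearts 1 to 5. It was at 1270, 1960 and 2090 CPM in MCT1KO and at 1410, 1350, 1180 and 1330 CPM in WT without a pump. In WT it ran from 1090 to 1760 CPM with saline (median 1210) and was 1610, 1300 and 2170 CPM with Ang/PE. The MCT1KO groups with saline and Ang/PE did not overlap, but 2 of 3 MCT1KO hearts without a pump were as high as Ang/PE hearts. The log2 fold change for Ang/PE against saline was 0.91 (SE 0.19, adjusted p 0.0139) in MCT1KO and 0.36 (SE 0.19, adjusted p 0.318) in WT.

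Hspb6, or HSP20, a small heat shock protein phosphorylated under adrenergic stimulation, showed the same gap between saline and Ang/PE. In MCT1KO it was at 355, 448, 429 and 171 CPM with saline and at 659, 545, 672, 639 and 501 CPM with Ang/PE. Without a pump it was at 413, 604 and 486 CPM in MCT1KO and 540, 363, 359 and 417 CPM in WT. In WT it ran from 390 to 571 CPM with saline (median 489) and was 476, 440 and 534 CPM with Ang/PE. The MCT1KO saline and Ang/PE hearts did not overlap, and the WT groups did. The log2 fold change was 0.78 (SE 0.20, adjusted p 0.0250) in MCT1KO. The MCT1KO response exceeded the WT response by 0.79 (SE 0.28, unadjusted p 0.0104, adjusted p 0.297), so the difference between genotypes was not called.

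Among the other small heat shock proteins, Cryab had a log2 fold change of 0.58 (adjusted p 0.0580), Hspb8 of 0.57 (adjusted p 0.0725) and Hspb1 of 1.09 (adjusted p 0.106) in MCT1KO. Of the 5 in this class, 2 were called and 5 had an unadjusted p below 0.05, against 4.46% and 20.4% of all genes. In WT, 0 of 5 were called and 1, Hspb1, had an unadjusted p below 0.05 (19.1% of all genes). MCT1KO saline 4, the heart with low cardiomyocyte and high adipocyte markers, was the lowest of the 25 hearts for Cryab (438 CPM), Hspb6, Hspb7 and Hspb8 (157 CPM).

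Bag3 encodes the co-chaperone that joins HSP70 to small heat shock proteins and to autophagy. It was at 209, 215, 205 and 128 CPM in MCT1KO saline hearts and at 494, 290, 310, 268 and 269 CPM in MCT1KO Ang/PE hearts. In the other groups it was at 192, 270 and 248 CPM in MCT1KO and 237, 170, 179 and 188 CPM in WT without a pump. It ran from 206 to 262 CPM in WT with saline (median 244) and was 236, 235 and 396 CPM with Ang/PE. The MCT1KO saline and Ang/PE hearts did not overlap, and MCT1KO Ang/PE 1 lay well above the other 4. Its log2 fold change was 0.79 (SE 0.19, adjusted p 0.0216).

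Hsp90ab1, the constitutive cytosolic HSP90, was at 898, 889, 878 and 715 CPM in MCT1KO saline hearts and at 1440, 1170, 1030, 1120 and 1030 CPM with Ang/PE. It was at 796, 952 and 989 CPM in MCT1KO and 1120, 802, 867 and 905 CPM in WT without a pump. It ran from 871 to 1080 CPM in WT with saline (median 969) and was 960, 1050 and 1100 CPM with Ang/PE. Saline and Ang/PE hearts were apart in MCT1KO, with a log2 fold change of 0.46 (SE 0.12, adjusted p 0.0294), and overlapped in WT.

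Hsph1 encodes HSP110, which exchanges the nucleotide on HSP70. The 4 MCT1KO saline hearts were close together at 45.6, 44.4, 47.6 and 46.2 CPM, and the 5 Ang/PE hearts were at 134, 90.4, 51.6, 67.1 and 73.2 CPM. Without a pump it was at 39.4, 35.8 and 54.3 CPM in MCT1KO and 59.1, 44.0, 48.2 and 43.7 CPM in WT. In WT it ran from 37.4 to 63.7 CPM with saline (median 48.7) and was 41.9, 64.2 and 84.3 CPM with Ang/PE. The spread in MCT1KO was thus on the Ang/PE side, from just above the saline hearts to MCT1KO Ang/PE 1. Its log2 fold change was 0.86 (SE 0.22, adjusted p 0.0304). Its promoter is among those shown above with a heat shock core.

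Of the 11 cytosolic heat shock genes, 3 were called in MCT1KO (4.46% of all genes), 9 had an unadjusted p below 0.05 (20.4% of all genes) and all 11 had a positive log2 fold change. Hsf1 itself varied little, from 31.9 to 44.9 CPM over all hearts. It had a log2 fold change of 0.21 (adjusted p 0.106), with 38.9 to 43.3 CPM in MCT1KO Ang/PE hearts and 31.9 to 38.0 in MCT1KO saline hearts.

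**Figure D3:**
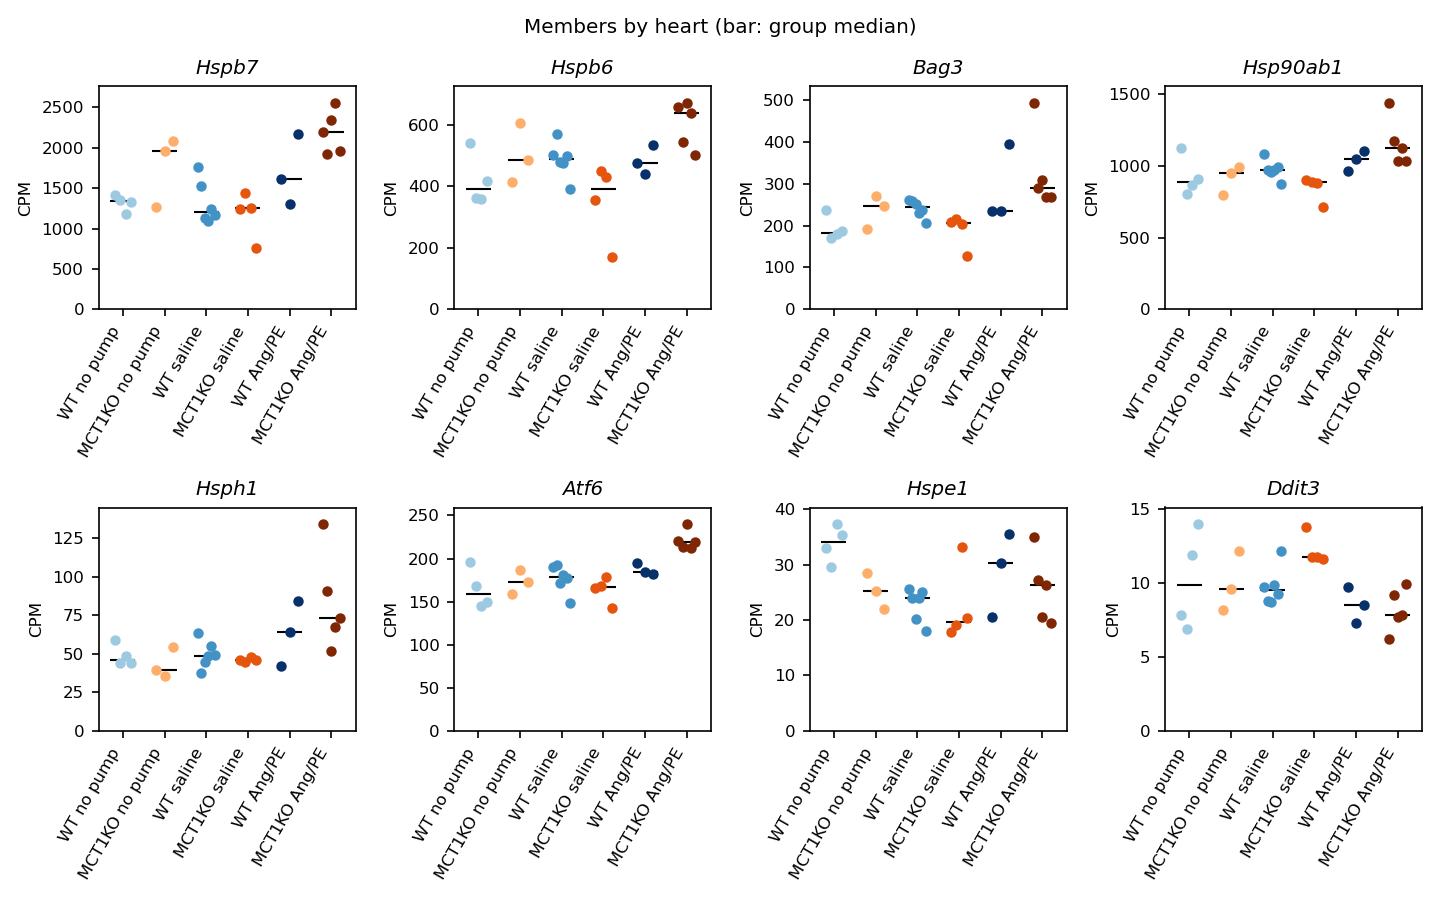
CPM (vertical axes, from 0) of 8 members in each heart of the 6 groups (horizontal axes), with points for hearts and a bar for the group median. MCT1KO hearts with saline and with Ang/PE do not overlap for Hspb7, Hspb6, Bag3, Hsp90ab1, Hsph1, Atf6 and Ddit3, with Ang/PE higher except for Ddit3. Hspe1 is lower with saline than without a pump in WT.

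Atf6 encodes an ER membrane protein that is cleaved under ER stress to release a transcription factor, and it was the called member whose Ang/PE values were most even. In MCT1KO it was at 166, 168, 178 and 142 CPM with saline and at 220, 213, 240, 212 and 219 CPM with Ang/PE. It was at 159, 187 and 173 CPM in MCT1KO and 196, 168, 145 and 149 CPM in WT without a pump. In WT it ran from 148 to 193 CPM with saline (median 179) and was 195, 184 and 182 CPM with Ang/PE. All 5 MCT1KO Ang/PE hearts were above all other 20 hearts. The log2 fold change for Ang/PE against saline was 0.43 (SE 0.09, adjusted p 0.0141) in MCT1KO. It was 0.35 against no pump (adjusted p 0.117) and 0.24 against WT with Ang/PE (adjusted p 0.711), so only the contrast with saline was called. The difference between the responses of the genotypes was 0.35 (SE 0.14, adjusted p 0.309).

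ER stress signalling genes differed in the sign of their values in MCT1KO. Of 6 genes, 1 was called higher (1.75% of all genes), and 3 had a positive and 3 a negative log2 fold change. Ddit3, which encodes the pro-apoptotic factor CHOP, was at 13.8, 11.8, 11.8 and 11.6 CPM in MCT1KO saline hearts and at 6.22, 9.22, 7.72, 7.85 and 9.97 CPM in MCT1KO Ang/PE hearts. These groups did not overlap, with Ang/PE below saline and the lowest value of all 25 hearts in MCT1KO Ang/PE 1. The log2 fold change of Ddit3 was −0.57 (SE 0.18, adjusted p 0.0622), short of a call. A further gene model with the symbol Ddit3 had 0 counts in all hearts. Trib3, a pseudokinase induced by ATF4 and CHOP, had −0.44 (adjusted p 0.282), and Herpud1, an ER-associated degradation gene, −0.17. Atf4 and Xbp1, the transcription factors downstream of PERK and IRE1, had 0.27 (adjusted p 0.274) and 0.14. Counts per gene do not separate the spliced, active form of Xbp1.

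None of the 10 ER chaperones and folding enzymes was called for Ang/PE against saline in MCT1KO, while 4 had an unadjusted p below 0.05 (20.4% of all genes) and all 10 had a positive log2 fold change, from 0.05 for Pdia4 to 0.43 for Hspa5. Hspa5 was at 341, 316, 389 and 256 CPM with saline and at 568, 363, 423, 439 and 403 CPM with Ang/PE, and the groups overlapped (SE 0.16, adjusted p 0.125). In WT, Hspa5 ran from 376 to 530 CPM with saline and was 378, 386 and 657 CPM with Ang/PE. WT Ang/PE 3 was the highest of all hearts for Hspa5, Hsp90b1 (445 CPM), Calr, Canx, Pdia3, Pdia4, Pdia6, Sdf2l1 and Manf. Calr and Canx, the lectin chaperones calreticulin and calnexin, had log2 fold changes of 0.23 (adjusted p 0.133) and 0.21 (adjusted p 0.237) in MCT1KO, and Hsp90b1, the ER form of HSP90, 0.29 (adjusted p 0.222). The folding enzymes Pdia3, Pdia4 and Pdia6 had 0.17, 0.05 and 0.13, and Sdf2l1, Creld2 and Manf, ER proteins induced with BiP, had 0.15, 0.27 and 0.33.

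In WT hearts, Ang/PE against saline called 0 of 34 members and 0.0170% of all genes in edgeR. At an unadjusted p below 0.05 there were 11 members, against 19.1% of all genes, and 30 had a positive log2 fold change. The 11 were Hspa1b, Hspa1a, Hsp90aa1 (1.07), Hspa8 (0.61), Dnajb1 (1.40), Herpud1 (0.43), Hsp90b1 (0.36), Dnajb4 (0.92), Hspb1 (0.96), Atf4 (0.31) and Xbp1 (0.26). The median log2 fold change was 0.285, against −0.01 over all genes. For 0 members were all Ang/PE hearts above all saline hearts, which held for 6.39% of all genes. Without WT Ang/PE 3, 1 of the 34 members had an unadjusted p below 0.05. Xist was above 100 CPM in 3 of 3 WT Ang/PE hearts and 1 of 6 WT saline hearts. With an Xist covariate 5 members had an unadjusted p below 0.05, and 0 genes in place of 3 were called in all. DESeq2 called 3 members, Hspa1a, Hspa1b and Hsp90aa1, and 3.63% of all genes.

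**Figure D4:**
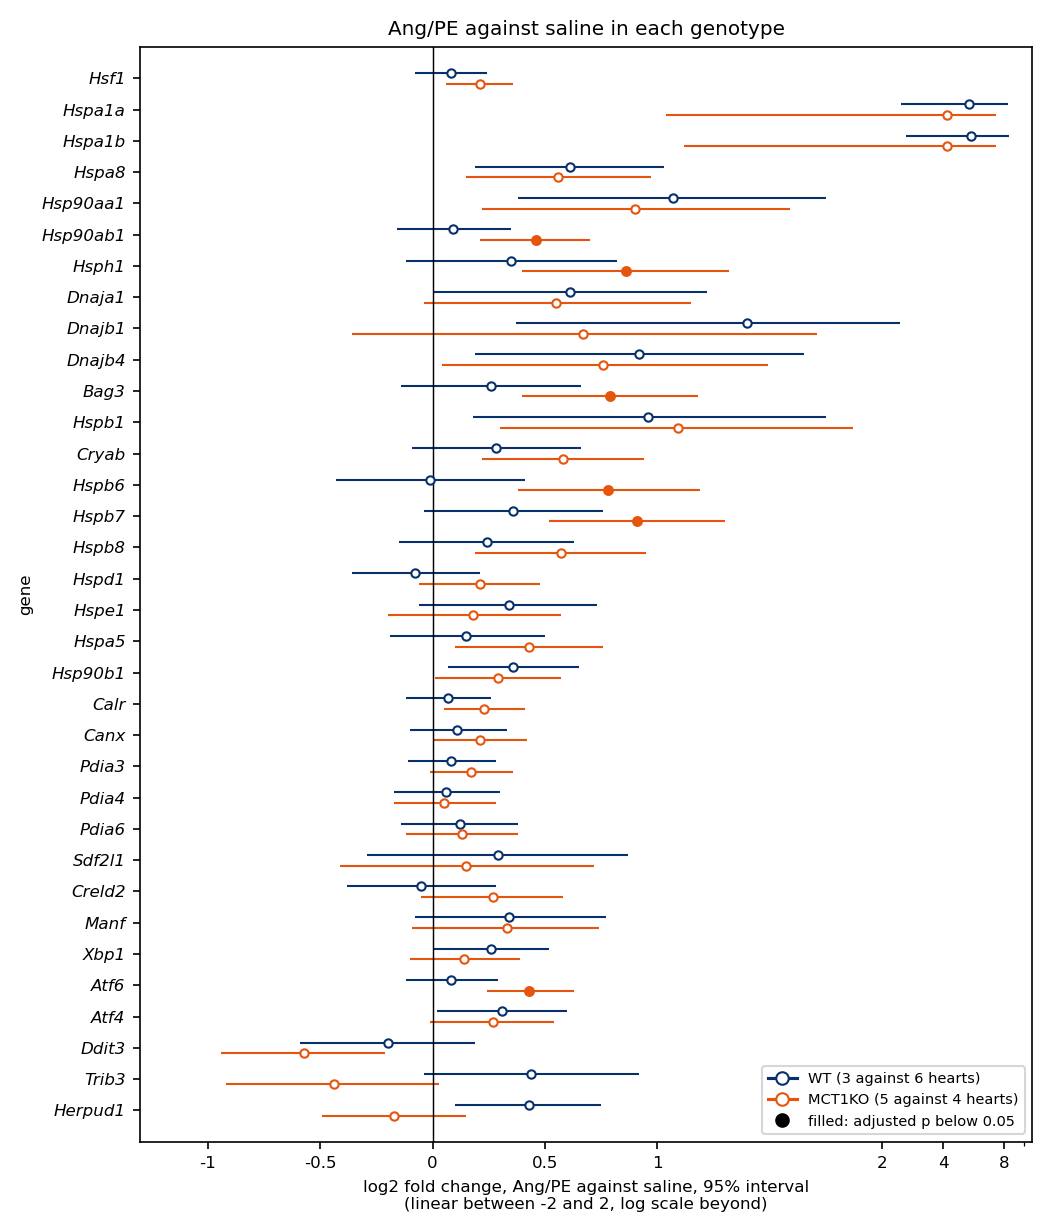
Log2 fold changes of the 34 genes (vertical axis) for Ang/PE against saline in WT and in MCT1KO (horizontal axis, with 95% confidence intervals, linear between −2 and 2 and on a log scale beyond), filled where called. Intervals are widest for Hspa1a and Hspa1b, and the 6 filled points are all MCT1KO.

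Ang/PE was also set against no pump, which uses the same Ang/PE hearts. Xist was above 100 CPM in 0 of 3 MCT1KO and 2 of 4 WT hearts without a pump, against 4 of 5 and 3 of 3 with Ang/PE. In MCT1KO, 0 members were called, against 0.503% of all genes, and 16 had an unadjusted p below 0.05, against 13.1%. In 10 members every Ang/PE heart was above every heart without a pump, against 4.49% of all genes: Hspa1a, Hspa8, Hsp90aa1, Hsp90ab1, Dnajb1, Hspb1, Calr, Pdia4, Atf6 and Atf4. With an Xist covariate 12 members had an unadjusted p below 0.05, and 23 genes in place of 89 were called in all. Of 14 clock genes, 7 were called here and all 14 had an unadjusted p below 0.05. With the clock covariate described below, 6 members had an unadjusted p below 0.05, and 0 genes were called in all. Hsph1 had the smallest adjusted p (0.0825), with a log2 fold change of 0.95. Hspb7 and Hspb6 had log2 fold changes of 0.31 (adjusted p 0.573) and 0.27 (adjusted p 0.659) here, against 0.91 and 0.78 with the saline hearts as the reference. In WT, 0 members and 0% of all genes were called, and 6 members had an unadjusted p below 0.05, against 9.02%: Hspa1a, Hspa1b, Bag3, Dnajb1, Hspb1 and Hspb8. DESeq2 called 5 members in MCT1KO (Hspa1a, Hspa1b, Hsp90aa1, Hsph1 and Atf6), against 2.28% of all genes, and 2 in WT (Hspa1a and Hspa1b), against 0.198%.

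Saline against no pump shows the step that carries no agonist. In WT, 1 of 34 members was called, and it was lower, while 6.61% of all genes were called and 4.22% were called lower. It was Hspe1, the co-chaperonin HSP10 of mitochondria. Without a pump it was at 32.9, 29.5, 37.3 and 35.4 CPM in WT hearts and 28.5, 25.3 and 21.9 CPM in MCT1KO hearts. With saline it ran from 18 to 25.5 CPM in WT (median 24) and was 17.9, 19, 33.2 and 20.3 CPM in MCT1KO. With Ang/PE it was at 20.6, 30.2 and 35.5 CPM in WT and 34.9, 27.2, 20.5, 26.3 and 19.5 CPM in MCT1KO. All WT saline hearts were below all WT hearts without a pump, and the log2 fold change was −0.57 (SE 0.17, adjusted p 0.0494). The call was lost when single hearts were left out, in 9 of 10 cases. In the same comparison 3 of 4 atrial markers were called higher, with sums of 46.5 to 2600 CPM with saline and 60.3 to 132 CPM without a pump. With covariates for adipocyte markers and atrial markers (Myl4, Myl7 and Sln) the log2 fold change of Hspe1 was −0.22 (adjusted p 0.761). Its partner Hspd1, which encodes HSP60, had a log2 fold change of −0.02 in the same comparison and was not called.

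At an unadjusted p below 0.05 there were 2 members in WT, Hspe1 and Herpud1 (−0.37), against 24.3% of all genes. For 4 members, Hspe1, Herpud1, Hsp90aa1 and Dnajb4, every saline heart was below every heart without a pump, against 6.22% of all genes. In MCT1KO, 0 members and 0.00566% of all genes were called for saline against no pump. There, 2 members had an unadjusted p below 0.05, against 12.1%, and both were small heat shock proteins, Hspb7 (−0.60) and Hspb6 (−0.51). This number was 1 without MCT1KO saline 4 and 0 with covariates for atrial and adipocyte markers.

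The genotypes were compared within each treatment. Without a pump 0 members and 0% of all genes were called, and 3 members had an unadjusted p below 0.05, against 12.2%. These were ER genes, Creld2 (−0.43), Sdf2l1 (−0.70) and Pdia6 (−0.29). Without MCT1KO no pump 2, or without MCT1KO no pump 3, 0 members had an unadjusted p below 0.05. The log2 fold change was negative for 9 of 10 ER chaperones and folding enzymes, 10 of 11 cytosolic heat shock genes and 27 of all 34 members. It was positive for 49.6% of all tested genes. For 6 members (Hspa8, Hsp90aa1, Hspe1, Pdia4, Sdf2l1 and Creld2) all MCT1KO hearts were below all WT hearts, against 6.47% of all genes. With saline 0 members and 0% of all genes were called, and 4 members had an unadjusted p below 0.05, against 17%: Hspa5 (−0.39), Hspb6 (−0.47), Hspd1 (−0.31) and Hspb8 (−0.41). This number was 0 without MCT1KO saline 4, and also 0 with covariates for atrial and adipocyte markers.

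With Ang/PE 0 members and 0% of all genes were called, and 3 members had an unadjusted p below 0.05, against 6.92%. All 3 belong to ER stress signalling. Herpud1 was at 255, 181 and 151 CPM in WT and at 145, 91.7, 158, 142 and 119 CPM in MCT1KO, with a log2 fold change of −0.58 (SE 0.16, 95% interval −0.92 to −0.24, adjusted p 0.692). Trib3 was at 3.46, 4.82 and 4.14 CPM in WT and at 2.19, 3.14, 2.15, 2.77 and 2.52 CPM in MCT1KO, with −0.69 (SE 0.25, 95% interval −1.20 to −0.18, adjusted p 0.692). The groups overlapped for Herpud1 and did not for Trib3 and Atf6. Among 14 clock genes, 10 also had an unadjusted p below 0.05 in this comparison. The clock score, defined below, was 0.05 to 1.33 in MCT1KO and 1.48 to 2.8 in WT with Ang/PE. The part of the clock in the genotype differences was not tested. For Hspa1a the interval of the genotype difference was wide, from −3.34 to 2.12. These counts depended on WT Ang/PE 3. When it was left out, 10 members had an unadjusted p below 0.05 and 0 were called. The median log2 fold change of the members was then 0.203, against −0.053 with all hearts.

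The difference between genotypes in their response to Ang/PE against saline called 0 members and 0% of all genes. At an unadjusted p below 0.05 there were 5 members, against 13.5%: Hspb6, Atf6 and Hsp90ab1 with a larger log2 fold change in MCT1KO (by 0.79, 0.35 and 0.36), and Trib3 and Herpud1 with a smaller one (−0.88 and −0.60). Leaving out WT Ang/PE 3 gave 14 members with an unadjusted p below 0.05 and 0 calls. The median difference in response over the members was then 0.351, against 0.001 with all hearts. For saline against no pump 0 members and 0.00566% of all genes were called, and 4 had an unadjusted p below 0.05, against 17.2%. These were Hspb6 (−0.73), Bag3 (−0.64), Hspb8 (−0.62) and Hspb7 (−0.60), each with a lower response to saline in MCT1KO. All 8 cardiomyocyte markers were negative in this comparison too, with a median of −0.38. Without MCT1KO saline 4, 1 member had an unadjusted p below 0.05, and with covariates for atrial and adipocyte markers 2 had.

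Leaving out single hearts altered the calls for Ang/PE against saline in MCT1KO. Without MCT1KO saline 4, 0 members were called, and the number of called genes over the whole table went from 788 to 39. The log2 fold changes of the 6 members then were 0.74 for Hspb7, 0.37 for Atf6, 0.63 for Bag3, 0.55 for Hspb6, 0.38 for Hsp90ab1 and 0.86 for Hsph1. Without MCT1KO Ang/PE 1, 2 members were called, Hspb7 and Atf6, and 11 had an unadjusted p below 0.05. DESeq2 called 12 members, the 6 and Hspa1a, Hspa1b, Hsp90aa1, Cryab, Hspb8 and, lower, Ddit3, when it called 6.92% of all genes. The 6 adipocyte markers summed to 79.6, 54.5, 1.75 and 1450 CPM in MCT1KO saline hearts 1 to 4 and to 0.06 to 1.27 CPM in MCT1KO Ang/PE hearts, where 2 to 5 of the 6 had no count. The 4 atrial markers summed to 64 to 7390 CPM with saline and 315 to 5150 CPM with Ang/PE, with 3 of the 4 called lower. Most of the sums with Ang/PE was Nppa, at 313 to 5140 CPM, against 62.5 to 3710 CPM with saline. Myl4, Myl7 and Sln reached at most 5.45, 0.279 and 0.15 CPM with Ang/PE, and up to 1970, 1360 and 348 CPM with saline. The 8 cardiomyocyte markers summed to 33700 to 57900 CPM with saline and 48800 to 65200 CPM with Ang/PE. The atrial covariate used Myl4, Myl7 and Sln, without Nppa. Covariates for atrial and adipocyte markers left 0 members and 1 gene called in all. The log2 fold changes then were 0.29 for Hspb6, 0.45 for Hspb7, 0.48 for Bag3, 0.26 for Atf6, 0.30 for Hsp90ab1 and 0.79 for Hsph1. Fitting only these 9 hearts also left 0 members and 1 gene called, with values between 0.42 for Atf6 and 0.89 for Hspb7, close to those of the fit to all hearts.

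Of 14 clock genes, 11 were called in the same comparison, 3 higher and 8 lower. The clock score, the mean log2(CPM + 1) of Dbp, Per2, Per3, Nr1d1, Nr1d2 and Ciart minus that of Bmal1 and Npas2, was 0.05 to 1.33 in MCT1KO Ang/PE hearts and 2.47 to 3.68 in MCT1KO saline hearts. With this score as a covariate, 0 members and 0 genes in all were called, and the log2 fold change of Hspb7 was 1.28 and that of Ddit3 −0.01. With Xist as a covariate, the same 6 members were called. The time of day at collection is not given in the sources used here, and its part in these differences was not tested.

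**Figure D5:**
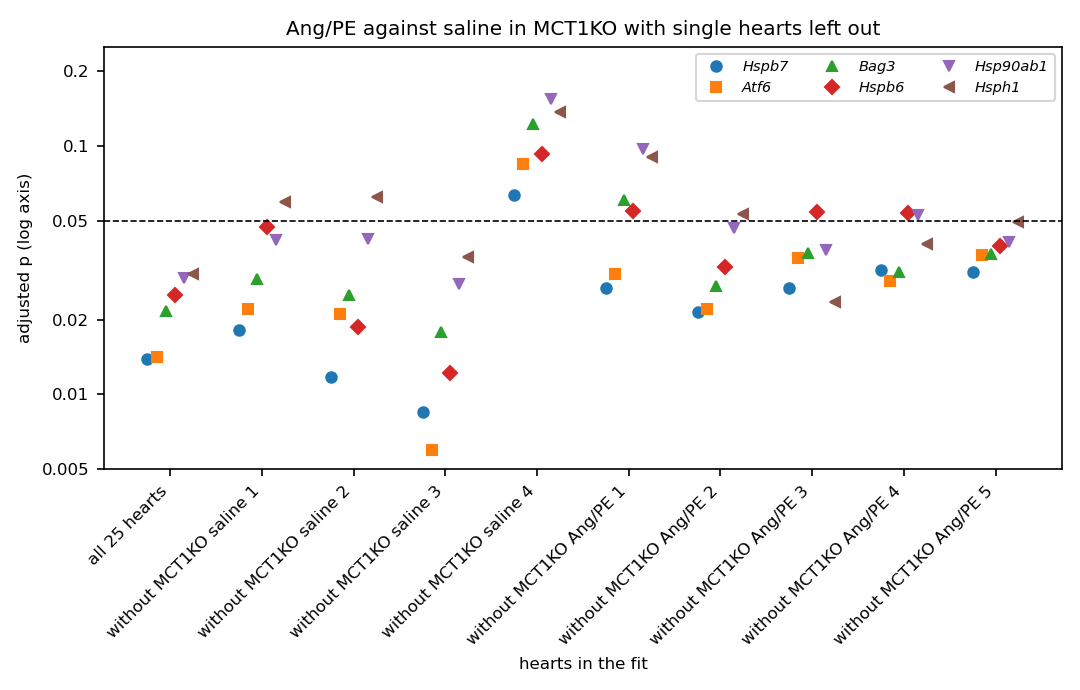
Adjusted p (vertical axis, log scale) of the 6 called members for Ang/PE against saline in MCT1KO with all 25 hearts and with each MCT1KO saline or Ang/PE heart left out (horizontal axis); the dashed line is 0.05. All 6 are above the line without MCT1KO saline 4, and 4 of 6 without MCT1KO Ang/PE 1.

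Related genes outside the 34 were counted in 5 lists. For Ang/PE against saline in MCT1KO, when 4.46% of all genes were called, 3 of 38 other cytosolic chaperones and co-chaperones were called and all 3 were higher (1.75% of all genes): Hspa4 (0.42, adjusted p 0.0245), an HSP110 relative, Dnajb6 (0.35, adjusted p 0.0125), an HSP40, and Bag2 (0.58, adjusted p 0.0265), a co-chaperone of HSP70. None of 12 other mitochondrial chaperones and proteases, 27 tested ER folding and degradation genes or 9 ER stress sensors and proteases was called. Of 28 tested genes of the integrated stress response, 1 was higher, Ddit4 (1.64, adjusted p 0.0354), an inhibitor of mTORC1, and 1 lower, Aldh1l2 (−1.19, adjusted p 0.0288), a mitochondrial folate enzyme.

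For saline against no pump in WT, when 6.61% of all genes were called, Cacybp (−0.39) and Cct5 (−0.30) were called of the 38 on the cytosolic list, and Yme1l1 (−0.48), a mitochondrial protease, of 12. Among the 27 ER folding and degradation genes Ppib (−0.32) was lower and Sel1l (0.29) and Vcp (0.36) were higher, the latter both parts of ER-associated degradation. Of 9 sensors and proteases Ern1, which encodes IRE1, was higher by 0.32 (SE 0.08, adjusted p 0.0237) and of 28 genes of the integrated stress response Eif2ak1, a kinase that starts it, by 0.27 (adjusted p 0.0329). In WT, Ang/PE against saline called 0 genes of the 5 lists.

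The stress genes named in any case, whatever their values, gave no call for Ang/PE against saline. In MCT1KO the log2 fold changes were −0.04 for Ern1, 0.01 for Eif2ak3, which encodes PERK, 0.08 for Dnajb9 and 0.12 for Hyou1, both ER chaperones, and 0.21 for Hspa9, the mitochondrial HSP70. In WT they were −0.10, −0.09, 0.23, −0.14 and −0.08. Asns, asparagine synthetase and a target of ATF4, had −1.06 (SE 0.37, adjusted p 0.0989) in MCT1KO and −0.36 in WT. Atf3 had 2.78 (SE 1.23, adjusted p 0.204) in MCT1KO and 3.99 (SE 1.17, adjusted p 0.0918) in WT, with the hearts split as described for Hspa1a.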

How the data were processed

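The deposited table holds raw read counts per Ensembl gene for each of 25 hearts, made by the authors from rRNA-depleted, stranded libraries per the labels' protocols. The submitters' processing notes name cutadapt 1.16, STAR 2.7.9a, featureCounts 1.6.3, DESeq2 1.42.1 and the build GRCm39 (mm39). The annotation release, the strand setting and the treatment of reads with several matches are not given in the sources used here. Depth was 12216704 to 24880683 counts per library, which limits the precision of genes with few counts.

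Counts were tested with edgeR 4.0.16 in R 4.3.3. One model with 6 groups was fitted to all 25 hearts (TMM scaling, filterByExpr, robust quasi-likelihood fit, 19 residual degrees of freedom, common coefficient of biological variation 0.196), with 11 two-sided comparisons. The filter left 17682 genes, and p-values were adjusted over them by the Benjamini-Hochberg method, with a threshold of 0.05. CPM uses TMM-scaled library sizes. The script was tested on simulated data.

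Gene symbols and exon lengths came from GENCODE M21 (GRCm38), by Ensembl ID: 51948 of 56941 genes had a symbol, and the rest held 0.778% of reads. A further Ddit3 identifier with 0 counts was left out. Promoters came from RefSeq (GRCm38.p6), a build other than that of the counts.

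The members and lists were chosen with earlier results of these data known. Members called between 2 groups, filled up to 8 by the smallest unadjusted p, are given heart by heart. Of other lists, up to 3 called genes per comparison are named, with Atf3, Ern1, Eif2ak3, Dnajb9, Hyou1, Hspa9 and Asns in any case. Alternatives were RLE scaling, no filter, DESeq2 1.42.0, a non-robust fit, a replicate block, mitochondrial genes removed, covariates, only the groups compared, Hspa1a and Hspa1b summed, and leaving out each heart. The labels give each heart as a separate sample.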

Additional observations from a re-analysis of the deposited data

Results flagged for a closer look

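Of 136 groups of 4 to 6 hearts tested over the 34 members, 18 held a heart set apart from the rest of its group by a gap large against the group's range, where chance gives about 1 in 20, or 6.8. That is 13.2% of the groups tested, against 6.69% over all tested genes. The groups of 3 hearts, WT with Ang/PE and MCT1KO without a pump, were not tested. No cause was tested for any of these.

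MCT1KO saline 4 accounts for 6 of the 18, and over all tested genes for 19.5% of the hearts found this way. It was low for Bag3 (128 CPM, against 205 to 215 in the other MCT1KO saline hearts), Cryab (438, against 745 to 794), Hsp90ab1 (715, against 878 to 898), Hspb1 (84.7, against 101 to 104) and Hspb8 (157, against 301 to 327). It was high for Dnajb1 (33.7 CPM, against 17.4 to 19.3). In the same group, Ddit3 was high in MCT1KO saline 1 (13.8 CPM, against 11.6 to 11.8) and Hsp90b1 in MCT1KO saline 3 (279 CPM, against 217 to 222).

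MCT1KO Ang/PE 1 was high for Bag3 (494 CPM, against 268 to 310 in the other MCT1KO Ang/PE hearts), Dnajb4 (240, against 79.6 to 104) and Xbp1 (68.3, against 47.9 to 51.7).

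Among WT hearts without a pump, Cryab was high in heart 1 (950 CPM, against 692 to 725), and Dnajb1 was low in heart 4 (12.8, against 16.8 to 17.4). Heart 2 was low for Hsp90b1 (259 CPM, against 304 to 311) and Hspa1a (0.731, against 2.03 to 2.36). Among WT saline hearts, heart 1 was high for Dnaja1 (60.5 CPM, against 25.3 to 33.6) and Hspa1b (4.71, against 1.38 to 1.99), and heart 6 for Ddit3 (12.2, against 8.72 to 9.87).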

How the results depend on the processing

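For 76 pairs of a member and a comparison with an unadjusted p below 0.05 in the main fit, 1558 alternative fits were made. Of these, 1478 kept the direction and the side of the threshold, 23 passed it, 53 no longer passed it and 4 reversed. Most pairs were not called in the main fit and so had no call to lose. The 53 all came from the called members, with 10 of 20 fits for Hsph1 in MCT1KO and 15 of 21 for Hspe1 in WT. The 4 reversed fits were all for Ang/PE against saline in WT without WT Ang/PE 3: Hspa1a −0.30, Hspa1b −0.04, Dnajb1 −0.10 and Hspb1 −0.04. With each heart of this comparison left out in turn, their highest values were 5.99, 6.09, 1.83 and 1.33. For Ang/PE against saline in MCT1KO, where 6 members were called, 3 were called with no filter on low counts, 12 by DESeq2, and 0 with covariates for atrial and adipocyte markers, with a clock covariate or with only the groups compared. With single hearts left out, 0 to 8 were called. For saline against no pump in WT, where 1 was called, 4 were called with only the groups compared and 0 with RLE scaling, with no filter, with an Xist covariate, with the atrial and adipocyte covariates or with the clock covariate. With single hearts left out, 0 to 1 were called. Where edgeR called 0 members, DESeq2, run only on all hearts, called 3 for Ang/PE against saline in WT. For Ang/PE against no pump it called 2 in WT and 5 in MCT1KO. With single hearts left out, edgeR called 0 to 2 for Ang/PE against saline in WT and 0 to 1 for Ang/PE against no pump in MCT1KO. The cause of these differences was not tested.

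Hearts with the same replicate number did not deviate together on average (mean correlation 0.00941 over 52 pairs of hearts, from −0.232 to 0.405). The labels do not say whether the numbers pair animals. Differently numbered hearts were not compared, so the correlation cannot exclude a pairing. With the replicate block, 5 members were called for Ang/PE against saline in MCT1KO, without Hsph1, and 0 for saline against no pump in WT. Groups of 3 to 6 hearts limit what could be called.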
